A study of Mus musculus with 4 samples.

Results

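The MHC class II presentation genes comprised 7 mouse genes whose products carry peptides from internalised proteins to CD4 T cells. They were H2-Aa, H2-Ab1, H2-Eb1, H2-DMa, H2-Ob, Cd74 and Ifi30. Every probe set annotated to these genes was taken, which gave 1 probe set for each, and all 7 were among the 8220 genes measured. Expression was read from total RNA on 4 arrays with 1 array in each group. The groups were in vitro amplified dendritic cell progenitors from bone marrow, cells differentiated from them for 7 days, cells differentiated for 10 days, and 10-day cells that had also received the cytokine TNF-alpha for 16 hours. The sources used here do not give the mouse strain, genotype, age, growth factors or how many cultures or animals stand behind an array. With a single array in each group there is no replicate spread, and no test or p-value is given.

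Class II molecules are pairs of an alpha and a beta chain. H2-Aa and H2-Ab1 encode the chains of I-A, and H2-Eb1 encodes the beta chain of I-E, whose alpha partner comes from H2-Ea. Newly made pairs are escorted by the invariant chain, the product of Cd74, into endosomes, where proteases trim it to a short peptide that stays in the groove. H2-DM, made from H2-DMa and an H2-DMb gene, exchanges that peptide for others, and H2-O, made from H2-Oa and H2-Ob, restrains H2-DM. Ifi30 encodes GILT, a thiol reductase that opens disulphide bonds of proteins in endosomes. Transcription of the chain genes depends on Ciita, a co-activator recruited by factors bound to an X box and a Y box upstream of these genes. The Y box is the site of the factor NF-Y, and its core reads ATTGG. Dendritic cells are known for very high class II levels and for moving the molecules to their surface when they mature.

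Promoter stretches are shown because the X and Y boxes are the feature that class II genes are known to share, and the array values that follow can be read beside them. All are on GRCm38.p6, from RefSeq, and run 5′ to 3′ on the strand of the gene. The first run of capitals marks GCAAC, or GTAAC in H2-DMb1, and the second marks ATTGG. In H2-Eb1, H2-Ob, H2-DMb1 and H2-Eb2 the first run opens the X box core as spelled below. In H2-Aa and H2-Oa it does not, and only the shorter GCAAC was matched.
H2-Aa (chr17:34287847-34287924, minus strand): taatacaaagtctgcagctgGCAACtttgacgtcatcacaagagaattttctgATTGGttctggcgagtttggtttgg
H2-Eb1 (chr17:34305756-34305832, plus strand): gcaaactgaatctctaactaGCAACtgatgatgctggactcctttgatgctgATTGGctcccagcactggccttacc
H2-Ob (chr17:34238798-34238872, plus strand): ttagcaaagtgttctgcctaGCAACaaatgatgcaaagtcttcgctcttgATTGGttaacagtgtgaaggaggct
H2-Oa (chr17:34092283-34092360, plus strand): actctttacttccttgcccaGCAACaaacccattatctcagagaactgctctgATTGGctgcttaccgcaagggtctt
H2-DMb1 (chr17:34153077-34153154, plus strand): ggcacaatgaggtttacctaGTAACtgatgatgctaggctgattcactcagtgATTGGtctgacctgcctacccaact
H2-Eb2 (chr17:34325523-34325599, plus strand): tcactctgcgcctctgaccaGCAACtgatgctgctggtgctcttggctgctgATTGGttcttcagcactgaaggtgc

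In the 3 members shown, ATTGG began 48 bases before the annotated start in H2-Aa, 59 in H2-Eb1 and 57 in H2-Ob. Between the end of GCAAC and the start of ATTGG lay 28, 27 and 25 bases. Promoters were searched on both strands, in windows reaching from 250 bases before to 50 bases after each annotated start. Chromosome 18, where Cd74 lies, was left out, and no window was available for H2-Ab1 and H2-Ea. The X box core, spelled GNAAC, any 2 bases and ATG, followed by ATTGG on the same strand within 30 bases, was found in 20 of 32851 promoter windows (0.0609%), which belong to 18 genes. Of these genes 4 are class II chain genes, namely H2-Eb1, H2-Ob, H2-DMb1 and H2-Eb2. ATTGG alone was found in 37.4% of the windows. The shorter pair GCAAC then ATTGG, chosen after the H2-Aa sequence had been read, was found in 1.39% of windows and in the windows of H2-Aa, H2-Eb1 and H2-Ob among the 5 members searched. Neither pair was found in the windows of H2-DMa and Ifi30, nor, outside the members, in that of H2-DMb2. This says only that these letters are not in those windows. A match is a description of the sequence and not a measured binding site.

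Levels are scaled intensities in arbitrary units. Folds are given against a floor of 428 units, the 60th percentile of all values, and are written as "at least" where the dimmer array lies under it. Between 1.85% and 2.38% of probe sets on an array lay more than 428 units below 0, which shows how often noise reached that size on the negative side. Log2 ratios are taken after values are raised to 105 units, the 40th percentile. A gene counts as higher or lower when such a ratio shows at least a 2-fold difference. Each probe set binds with its own strength, so levels, ranks and sums describe the brightness of probe sets and do not show which transcript is more abundant.

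H2-Aa read -492 units in progenitors, 20686 at day 7, 100111 at day 10 and 81387 on the array of TNF-treated cells. H2-Ab1 was at 348, 11970, 46287 and 49614 units on the same arrays. H2-Eb1 was at 391, 14807, 55859 and 73687 units. These genes of the I-A and I-E chains thus lay under 428 units in progenitors and far above it on all 3 arrays of differentiated cells. Cd74, the invariant chain gene, was at 2380 units in progenitors, 20060 at day 7, 107887 at day 10 and 71535 with TNF. Unlike the chain genes it was above 428 units in progenitors already. H2-DMa, a chain of the peptide exchanger, was at 371, 12304, 41346 and 36434 units in that order, a course close to that of the chain genes. Ifi30 was at 1081, 2962, 4400 and 10863 units. H2-Ob was at 96, 161, 314 and 705 units, and its probe set exceeded 428 units only on the TNF array.

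**Figure D1:**
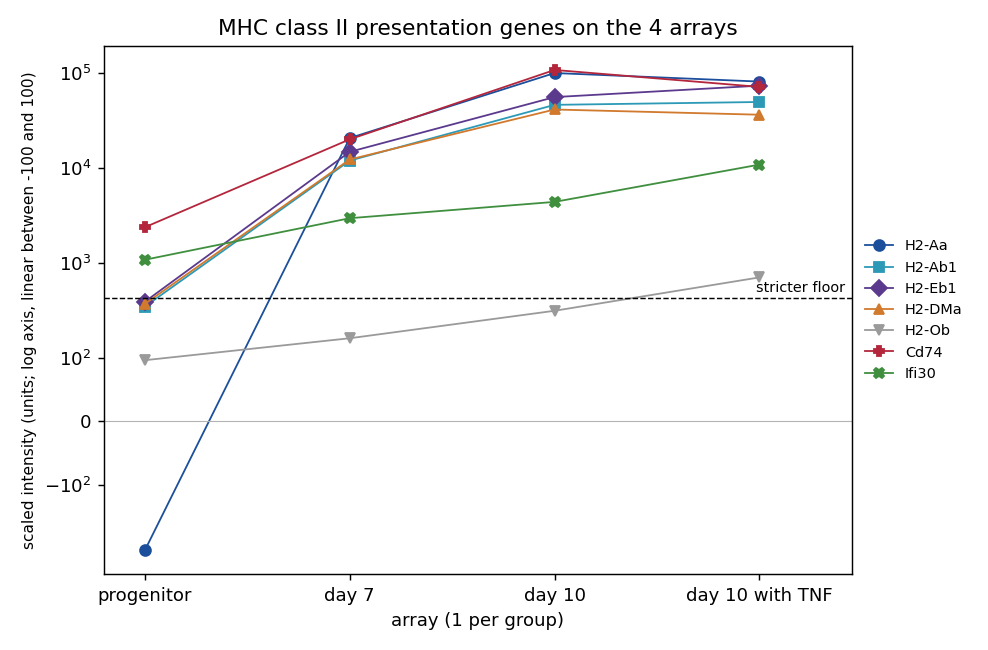
Scaled intensity of the 7 members on the progenitor, day 7, day 10 and day 10 with TNF arrays, on a log axis that is linear near 0. Points are single arrays, lines join the values of 1 gene, and the dashed line marks 428 units. H2-Aa, H2-Ab1, H2-Eb1 and H2-DMa run from under that line in progenitors to between 36434 and 100111 units at day 10 with or without TNF, while H2-Ob passes it only with TNF.

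The rank of a probe set within its array does not depend on how arrays are scaled. Among 12654 probe sets H2-Aa ranked 12443rd in progenitors, 57th at day 7, 7th at day 10 and 3rd with TNF. Cd74 ranked 1796th, 74th, 3rd and 22nd. H2-Eb1 ranked 5151st, 187th, 68th and 14th, and H2-Ab1 5376th, 274th, 97th and 71st. At day 10 with TNF the probe sets of both I-A chains, the I-E beta chain and the invariant chain were within the brightest 0.561% of the array. H2-DMa ranked 5250th, 262nd, 114th and 118th. Ifi30 ranked 3211th, 1450th, 1065th and 382nd, and H2-Ob 7533rd, 6830th, 5711th and 4068th. Both continued upward on the TNF array, as did H2-Aa, H2-Eb1 and H2-Ab1, while Cd74 and H2-DMa moved down.

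The first step, day 7 against the progenitor, bears on how early presentation genes come up in culture. At day 7, 6 of the 7 members passed 2-fold on the higher side and 0 on the lower, against 13.4% of 5957 genes higher over the whole array. The median log2 ratio was 5.05 over the members and -0.04 over all genes. The difference was smallest for Ifi30 and H2-Ob. Ifi30 was 2.74-fold higher, and H2-Ob lay under 428 units on both arrays, with a log2 ratio of 0.62. Cd74 stood 8.43-fold higher, or 15.3-fold after quantile normalization. Its ratio was smaller than those of the I-A and I-E chains, whose progenitor levels are bounds set by the floor. For H2-Aa the log2 ratio of 7.63 rests on that floor, and it was 5.59 with the floor at 428 units and 8.57 after quantile normalization. As a yardstick of technical disagreement within these arrays, 2 probe sets of 1 gene differed with an SD of 0.83 on the log2 scale over 672 genes. It holds no spread between samples, so sizes set beside it are a description and no test. The ratios of 5 members exceeded 2 such SDs, and those of Ifi30 and H2-Ob did not.

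The comparison of day 10 with day 7 asks what the last days of differentiation add. The highest level on the array was 137313 units at day 10 and 30560 at day 7. Controls not made by the cells were also brighter at day 10. The 9 bacterial control probe sets had a median level of 10443 units at day 10 and 3990 at day 7, with a median log2 ratio of 1.50 and a range of 1.20 to 1.77. Their part in the results that follow was not tested, and day and array cannot be told apart. At day 10, 5 of the 7 members passed 2-fold on the higher side and 0 on the lower, against 11.2% of 6123 genes higher. After quantile normalization, which makes the distributions of all arrays equal, 2 were higher and 0 lower, against 9.5% and 9.62% of 6094 genes. The members' median log2 ratio was 1.92, or 0.89 after quantile normalization, while that of all genes was 0.06 or -0.02.

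The 2 members past 2-fold under both scalings were H2-Ab1, with log2 ratios of 1.95 and 1.25, and H2-DMa, with 1.75 and 1.06. For Cd74 the ratio was 2.43, or 0.77 after quantile normalization, and for H2-Aa 2.27 or 0.54. For H2-Eb1 it was 1.92 or 0.96. H2-Ob and Ifi30, which are far from the bright end, hardly depended on the scaling, at 0.96 or 0.89 for H2-Ob and 0.57 or 0.48 for Ifi30. All 7 ratios were above 0 under both scalings. With the probe-set SD of 0.85 for this pair of arrays, 5 members exceeded 2 SDs in the main scaling and 0 after quantile normalization.

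Set directly against the progenitor, day 10 had 7 of 7 members at least 2-fold higher, also after quantile normalization. Beside these counts, 20.4% of 6198 genes were higher and 16.8% lower in the main scaling, and 17.8% were higher after quantile normalization. This comparison shares its arrays with the previous ones and adds no separate evidence. Against the floor of 428 units H2-Aa was at least 234-fold higher, H2-Eb1 at least 130.5-fold, H2-Ab1 at least 108-fold and H2-DMa at least 96.6-fold in the main scaling. After quantile normalization these bounds were 135-fold for H2-Aa, 87.4-fold for H2-Eb1, 74.3-fold for H2-Ab1 and 67.6-fold for H2-DMa. The bacterial controls had a median log2 ratio of 1.18 between these arrays, and their part was not tested. Cd74 was 45.3-fold higher, or 26.0-fold after quantile normalization, and Ifi30 4.07-fold. H2-Ob was under 428 units on both arrays, so no fold is given for it, and at the floor of 428 units the count was 6 of 6 members, against 17.3% of 4460 genes.

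TNF matures dendritic cells, and the comparison of day 10 with TNF against day 10 without it asks how the same genes stood after 16 hours of the cytokine. The members split. Ifi30 was at 10863 units with TNF and 4400 without, 2.47-fold higher, and H2-Ob was at 705 with TNF and 314 without, at least 1.65-fold higher. The other 5 differed by less than 2-fold in either direction. H2-Eb1 was 1.32-fold higher and H2-Ab1 1.07-fold higher with TNF. Cd74 was 1.51-fold lower, H2-Aa 1.23-fold lower and H2-DMa 1.13-fold lower, and the sign for H2-Aa turned after quantile normalization, with a log2 ratio of -0.30 in the main scaling and 0.10 after it.

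In all, 2 of 7 members passed 2-fold on the higher side with TNF and 0 on the lower, against 8.84% of 6151 genes higher. At the floor of 428 units it was 1 of 7, Ifi30, against 4.71% of 4308 genes. The members' median log2 ratio was 0.10, beside -0.04 over all genes. The probe-set SD was 0.74 here. The log2 ratios of 1.30 for Ifi30 and 1.17 for H2-Ob exceeded 1 SD and not 2 SDs, and the ratios of the other 5 members, from -0.59 for Cd74 to 0.40 for H2-Eb1, lay within 1 SD. Without replicates this does not show whether the samples differed. The bacterial controls had a median log2 ratio of -0.50 between these arrays.

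**Figure D2:**
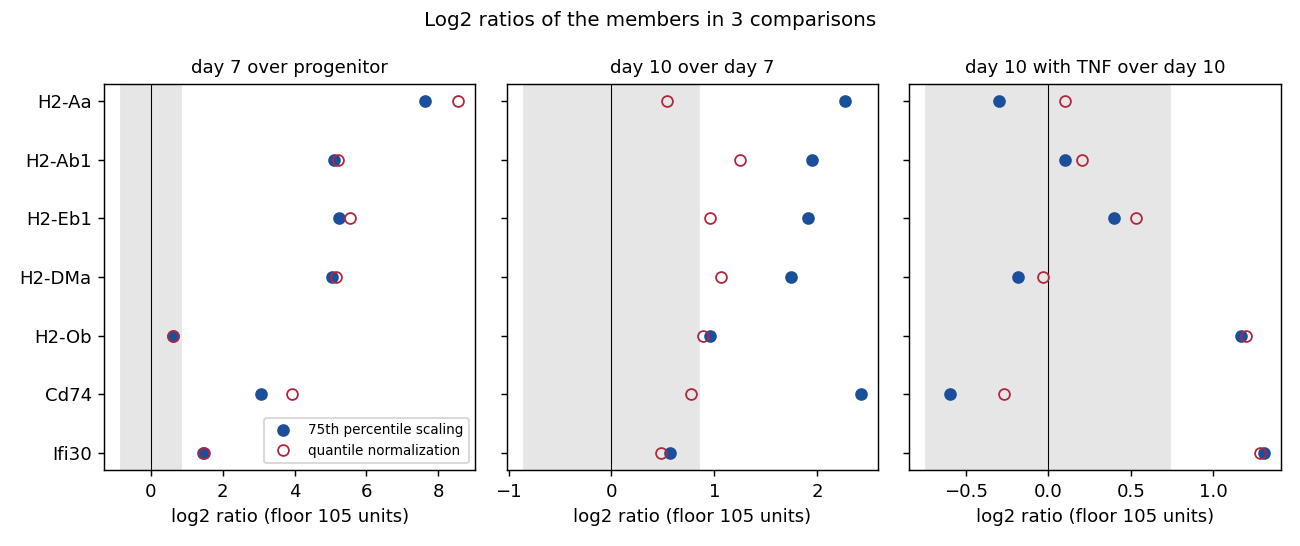
Log2 ratios of the 7 members, floor 105 units, in the comparisons of day 7 with progenitor, day 10 with day 7, and day 10 with TNF with day 10. Filled points use 75th percentile scaling, open points quantile normalization, and the grey band spans 1 SD of the disagreement between probe sets of a gene on either side of 0. At day 7 only H2-Ob lies in the band, at day 10 the ratios of H2-Aa and Cd74 depend most on the scaling, and with TNF only H2-Ob and Ifi30 lie outside it.

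Except for Cd74 on chromosome 18 and Ifi30 on chromosome 8, the members lie together on chromosome 17. From H2-Oa to H2-Ea the RefSeq annotation of GRCm38.p6 places 15 genes, counting protein-coding genes and the transcribed pseudogene H2-Ea, and all 15 were measured. The 10 class II genes among them are interrupted by Brd2, which encodes a bromodomain protein, and by 4 genes of class I presentation. These are Psmb9 and Psmb8, for subunits of the immunoproteasome, and Tap1 and Tap2, for the peptide transporter of the endoplasmic reticulum. This view of the region was chosen after the members' values were known.

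At day 7 against the progenitor 7 of the region's 8 class II genes that exceeded 105 units passed 2-fold on the higher side, and 0 of the 5 interspersed genes did, against 13.4% of all genes. At day 10 against the progenitor 8 of the 8 class II genes and 2 of the 5 others, Psmb9 and Tap1, were higher, against 20.4%. The log2 ratio of Psmb9, 1.04, was 0.998 after quantile normalization. At day 7 the median log2 ratio was 4.52 over the class II genes and 0.22 over the 5 others. Tap1 was at 1817 units in progenitors, 2752 at day 7, 5427 at day 10 and 9404 with TNF. Psmb8 was at 6359, 7382, 8780 and 17144 units, Psmb9 at 1610, 2211, 3310 and 5256, and Tap2 at 1333, 931, 1833 and 1853. Brd2 was at 1787, 1606, 1256 and 920 units. Genes that lie next to each other thus had very different ratios at day 7. H2-DMb1 had a log2 ratio of 3.99 and its neighbour Psmb9 one of 0.46. With TNF against day 10 without it the median was 0.29 over the class II genes and 0.67 over the 5 others.

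**Figure D3:**
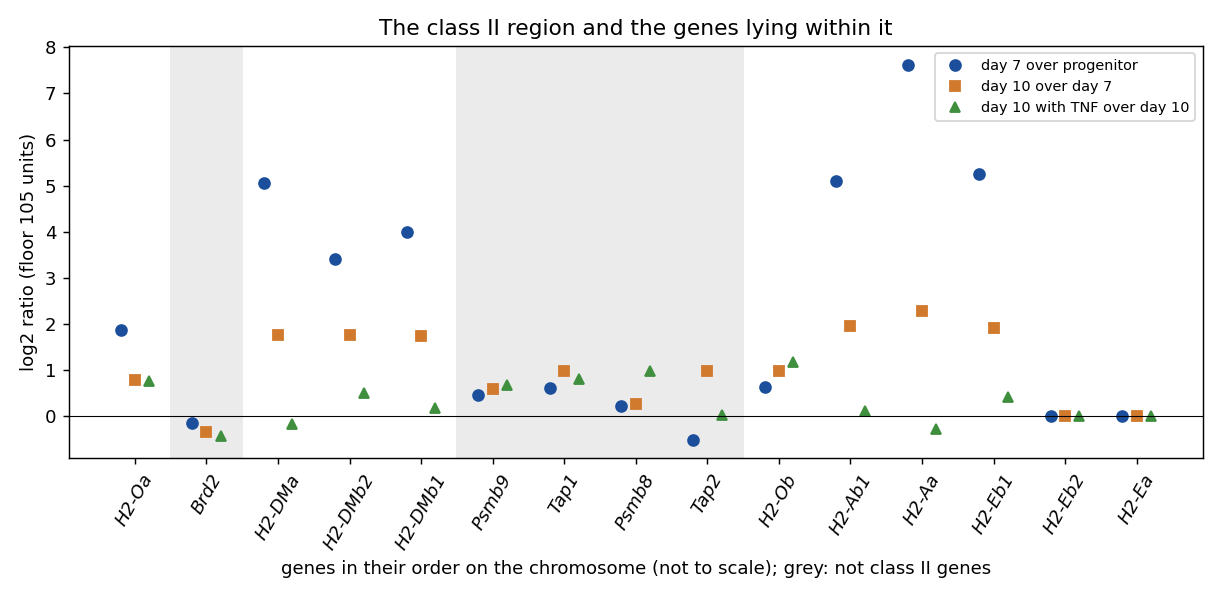
Log2 ratios, floor 105 units, of the 15 genes from H2-Oa to H2-Ea in their order on chromosome 17, for 3 comparisons. Grey bands mark the 5 genes that are not class II genes. The circles for day 7 over progenitor stand at 1.87 or more for H2-Oa, the H2-DM genes and the I-A and I-E chains, at 0.62 for H2-Ob, and between -0.52 and 0.60 in the bands, and H2-Eb2 and H2-Ea are at 0 because both arrays lie at or under the floor.

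The partners of the members were read from a list of 5 other class II chain genes, all measured. H2-DMb1, the partner chain of H2-DMa, was at 410 units in progenitors, 6539 at day 7, 21691 at day 10 and 24537 with TNF. H2-DMb2 was at 158, 1672, 5619 and 7915 units. These 2 genes are close relatives whose probe sets may share transcripts, and a probe set annotated to both was at 28.8, 1580, 7283 and 5666 units. H2-Oa, the partner of H2-Ob, was at 425, 1552, 2663 and 4481 units. It was at least 3.63-fold higher at day 7 than in progenitors, at a time when H2-Ob lay under 428 units. Both H2-O genes had their highest level on the TNF array, with log2 ratios against day 10 of 0.75 for H2-Oa and 1.17 for H2-Ob.

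The alpha partner of H2-Eb1 stood at background on every array. H2-Ea was at 12.6 units in progenitors, 38.3 at day 7, -7.24 at day 10 and 18.1 with TNF. The C57BL/6J reference annotates H2-Ea as a transcribed pseudogene, and the strain of these cells is not stated in the labels. H2-Eb2, a further beta chain gene whose promoter window matched both spellings shown above, was at -115, -56.7, 16.9 and 33.1 units. The probe set of a gene with both sequence matches thus stood at background here. With 1 probe set, a gene that is not expressed and a probe set that binds poorly cannot be told apart.

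Of 19 regulators of class II transcription listed, 15 were measured. At day 7 against the progenitor 4 of 15 passed 2-fold on the higher side and 1 on the lower, against 13.4% and 11.9% of all genes. At the floor of 428 units 2 of 12 were higher, Irf4 and Irf8, and 1 lower. Ciita was at 52.7 units in progenitors, 572 at day 7, 1478 at day 10 and 1818 with TNF. H2-Ab1, H2-Eb1, Ifi30 and H2-Ob had the same order, as did the regulators Irf1, Irf4, Irf8 and Prdm1. H2-Aa, H2-DMa and Cd74 instead stood lower with TNF than at day 10. The day 7 level of Ciita was at least 1.34-fold above that of progenitors. It was 2.58-fold higher at day 10 than at day 7, with log2 ratios of 1.37 in the main scaling and 1.40 after quantile normalization, a level at which the scaling mattered little. Irf8 and Irf4, interferon regulatory factors that work with PU.1 in dendritic cells, were 6.43-fold and at least 4.45-fold higher at day 7 than in progenitors. They were also 2.50-fold and 2.71-fold higher with TNF than without. Hdac2 was counted as higher at day 7 but lay under 428 units on every array. Nfyb, which encodes a subunit of NF-Y, was the 1 lower regulator. It was at 1958, 792, 436 and 501 units, so it was lower at day 10 than in progenitors by 4.49-fold, while Nfya was at 1639, 1835, 1780 and 3520 units and Nfyc at 2475, 3137, 3346 and 2397.

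With TNF against day 10 without it 4 of 15 regulators passed 2-fold on the higher side and 1, Hdac2, on the lower, against 8.84% and 8.76% of all genes. Prdm1, which encodes Blimp-1, a repressor of Ciita in plasma cells, was at 1087 units with TNF and 263 without, at least 2.54-fold higher. Ciita itself was at 1818 units with TNF and 1478 without, a log2 ratio of 0.30 that lies within 1 probe-set SD. Kat2b, an acetyltransferase gene, was at 776 units with TNF and 311 without.

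Genes of invariant chain trimming and antigen processing made up a list of 14, of which 12 were measured. At day 7 against the progenitor 6 of 12 passed 2-fold on the higher side and 0 on the lower, against 13.4% and 11.9% of all genes. At day 10 against the progenitor 11 were higher and 0 lower, against 20.4% and 16.8%. These counts use the brightest probe set of each gene. At day 7 that of Ctsb gave a log2 ratio of 0.52, and its dimmer ones 1.89 and 2.98. For Psap the brightest gave -0.28 and the dimmer 1.71, for Ctsc 1.55 and 2.65, and for Lamp2 0.61 and 0.13. Ctss, the cathepsin that completes the trimming of the invariant chain in dendritic cells, was at 4685 units in progenitors, 24027 at day 7, 85334 at day 10 and 72882 with TNF. Lgmn, a protease that cuts after asparagine, was at 399, 3295, 8920 and 8274 units, Ctsh at 1566, 7826, 14475 and 17117, and Lipa, the lysosomal lipase gene, at 550.5, 4266, 3584 and 1710. Between day 10 and day 7 the larger ratios belonged to bright genes and depended on the scaling. Ctss had a log2 ratio of 1.83 that turned to -0.06 after quantile normalization. Ctsd had a log2 ratio of 2.56, or 1.76 after quantile normalization, Psap 2.35 or 1.37, Cst3 1.96 or 0.23 and Ctsb 1.91 or 0.40. Dimmer probe sets of the same genes gave -0.32 for Psap, and 0.58 and 0.81 for Ctsb. In all 7 of 12 were higher at day 10 than at day 7, or 3 after quantile normalization, against 11.2% or 9.5% of all genes.

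With TNF against day 10 without it, 0 of the 12 processing genes were at least 2-fold higher, and Lipa was 2.10-fold lower, against 8.84% and 8.76% of all genes. The list median was -0.41 with TNF, or -0.28 after quantile normalization, which is less in size than the probe-set SD of 0.74 and than the median of -0.50 of the bacterial controls between these arrays. Ctsc, Ctsd and Psap were 1.69-fold, 1.57-fold and 1.44-fold lower. Ctsz, at 18665 units with TNF and 13030 without, and Ctsh had the opposite sign.

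The list of traffic and turnover genes had 9 of 11 members measured. It also held Hc, a complement gene, and Il10, a cytokine gene, both under 428 units on every array. Cd83, a surface protein that protects class II molecules from the ubiquitin ligase encoded by Marchf1, was at -108 units in progenitors, 3078 at day 7, 4524 at day 10 and 18714 with TNF. It was 4.14-fold higher with TNF than without, and its second probe set gave a log2 ratio of 1.99 beside 2.05. Cd9, a tetraspanin gene, was at 2460, 23540, 36638 and 24979 units. Its log2 ratio of 0.64 between day 10 and day 7 turned to -0.93 after quantile normalization. Cd37, another tetraspanin gene, was at 4873, 2869, 3062 and 4802 units.

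Over all 41 measured genes of these lists together, 15 of the 36 that exceeded 105 units passed 2-fold on the higher side at day 7 against progenitors, and 1 on the lower. The background was 13.4% higher and 11.9% lower. At day 10 against day 7 it was 11 of 38 higher and 1 lower, against 11.2% and 8.44%. After quantile normalization it was 7 and 1, against 9.5% and 9.62%. With TNF against day 10 it was 5 of 38 higher and 2 lower, against 8.84% and 8.76%. For class I presentation 1 of 13 genes was higher at day 7 than in progenitors and 0 lower, against 13.4% and 11.9% of all genes. The list median was 0.22. At day 10 against the progenitor 8 of 13 passed on the higher side and 1 on the lower, against 20.4% and 16.8%, and the list median was 1.18. Quantile normalization left 4 and 1, with 17.8% of all genes higher, and a list median of 0.74. At day 10 against day 7 it was 3 of 12 higher and 0 lower, against 11.2% and 8.44%. After quantile normalization it was 1 and 0, against 9.5% and 9.62%.

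**Figure D4:**
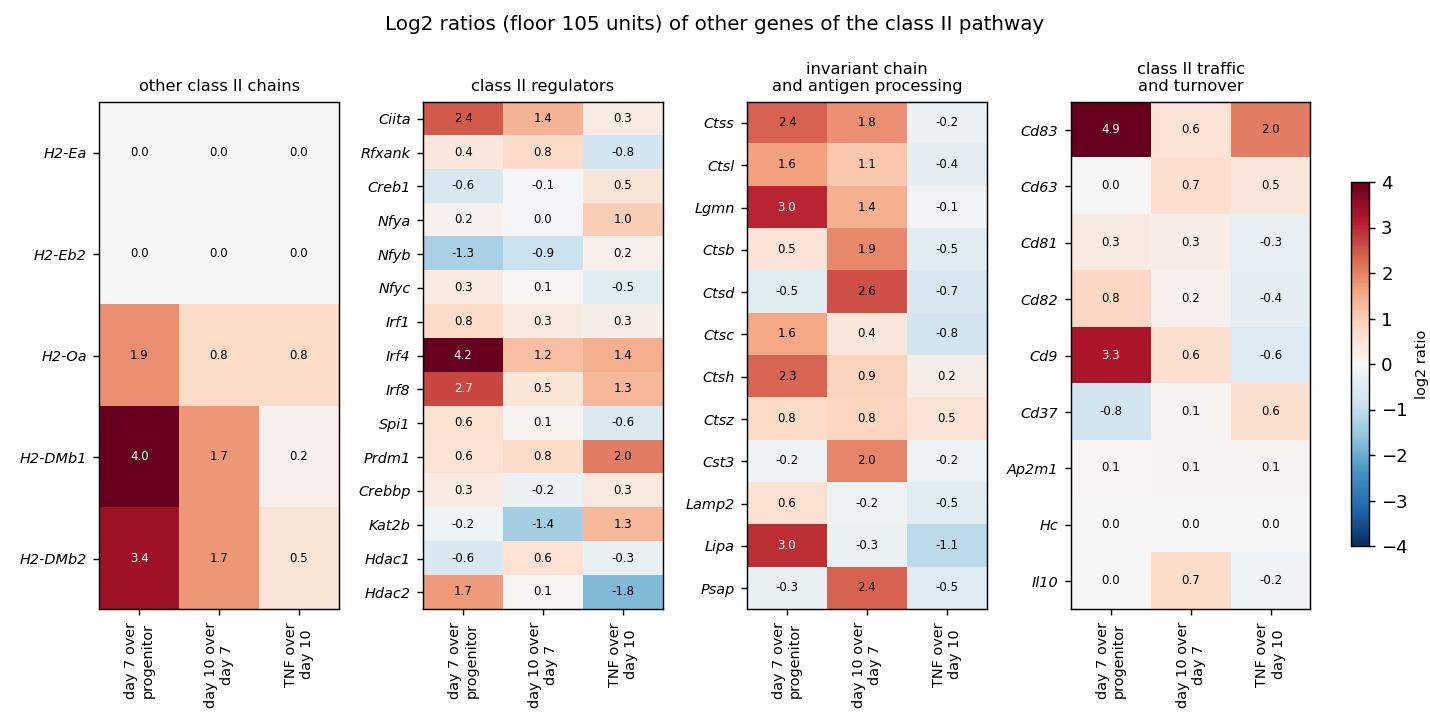
Log2 ratios, floor 105 units, of the 41 measured genes on the class II pathway lists outside the members, in 4 panels by list and 3 columns by comparison. Red stands for higher in the first-named group and blue for lower, on a scale from -4 to 4. Values of 0.0 include genes at or under the floor on both arrays. Ciita, Irf4, Irf8, Ctss, Lgmn and Cd83 are red at day 7, and the processing panel is mostly pale blue in its TNF column.

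Likeness of course was measured by the Euclidean distance over the 4 arrays between the log2 levels of a gene, floor 428 units and less their own mean, and the average course of H2-Aa, H2-Ab1 and H2-Eb1. Among 4737 genes above 428 units on at least 1 array, the 6 nearest genes outside the members were Mmp12, Plet1, Itgax, H2-DMb1, Ccl5 and Ccl17. Mmp12, a macrophage elastase gene, was at a distance of 0.459, and Plet1, a surface protein gene, at 0.634. Itgax, which encodes CD11c, was at 1.22 and H2-DMb1 at 1.24. Ccl5 and Ccl17, which encode chemokines, were at 1.27 and 1.28. In a ranking that also counts the 3 genes of the average course, H2-DMa was 6th nearest at 0.654, Cd74 13th at 1.85 and Ifi30 119th at 3.88. H2-Ob lay under 428 units on 3 of the 4 arrays, so that the floor sets its distance of 5.67. With only 4 arrays this ordering is a description.

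Markers of the cell types that can carry class II molecules were read on the same arrays. In bulk RNA, fewer cells of a type and less RNA per cell cannot be told apart. Of 12 measured dendritic cell markers 4 lay above 428 units in progenitors and 9 on each later array, with summed levels of 12819 units in progenitors, 40492 at day 7, 69951 at day 10 and 115607 with TNF. Zbtb46, Xcr1 and Dpp4 lay under 428 units on every array, and Flt3 was at 1972, 805, 517 and 614 units. Of 12 macrophage markers 7 lay above 428 units in progenitors and 9 on each later array, with sums of 13530, 66437, 142096 and 99967 units. Bright probe sets weigh most in such a sum, such as Cd68 at 3976, 20168, 44389 and 25262 units. Mmp12, the nearest gene in course above, is also on this list, at 118, 17697, 61180 and 49379 units. The complement gene C1qc was at 1679, -230, -19.9 and 66.9 units and C1qa at 487, -32.8, -142 and -11.7. Of 14 B cell markers 2, 3, 5 and 6 lay above it, with sums of 4832, 5602, 7064 and 7998 units, and 8 of the 14, among them Cd79a, Ms4a1, Cd22 and Ebf1, lay under it throughout. Pax5, a B cell regulator, was at 857, 1230, 2094 and 2134 units, Vpreb1 at -291, 161, 1175 and 1353, and Blnk at 83.9, 121, 657 and 933. Of 8 B cell markers above 105 units at day 10 or in progenitors, 4 were higher at day 10 and 1 lower, against 20.4% and 16.8% of all genes. At the floor of 428 units 2 of 5 were higher and 0 lower, with 17.3% of all genes higher. For plasmacytoid dendritic cells 1, 0, 1 and 0 of 4 markers lay above 428 units, and for T and NK cells 1, 0, 0 and 0 of 10. For stromal cells it was 0 of 8 on every array, and for genes of other organs 3 to 4 of 17. At day 7 against the progenitor 7 of 11 dendritic cell markers passed 2-fold on the higher side and 2 on the lower, and of 12 macrophage markers 7 and 3, against 13.4% and 11.9% of all genes. The part of any of these markers in the members' levels was not tested.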

How the data were processed

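The authors deposited linear intensities for 12654 probe sets, 1 column per array; the labels do not say by which software. The deposited intensities show 22.8% to 24.3% of values below 0 on each array, so some background had been subtracted, and a mean of the central 96% between 998.9 and 999.2, so overall brightness had been matched. Gene names came from the platform annotation, with symbols updated by Entrez number; 10298 had 1 symbol, 363 several and 1993 none. The brightest probe set by mean stood for each of 8220 genes. Arrays were scaled to the same 75th percentile (factors 0.962 to 1.05), raised to a floor and converted to log2. The self-check recovered changes planted in bright probe sets of simulated arrays. Their noise was smaller than the probe-set SDs given here, so it checks the code and not these data. No test was possible with 1 array in each group, and the number of arrays limits the precision. Alternatives were quantile normalization, values as deposited, a floor at the 60th percentile, a 3-fold threshold and the mean over probe sets. Named genes were all probe sets of the members, up to 4 genes with the largest ratio in each pathway list and comparison, H2-Ea, Ciita and Ctss, and the 6 nearest genes in course. Other list genes, the genes of the region and the interspersed genes named were chosen after their values were seen. The members and lists were chosen with earlier results of these data known. Python 3.11.15, numpy 2.4.6 and pandas 2.3.3 were used.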

Additional observations from a re-analysis of the deposited data

How the results depend on the processing

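The result that depended most on the processing was day 10 against day 7. Quantile normalization left 2 of 7 members and 7 of 38 pathway genes at least 2-fold higher and gave a members' median log2 ratio of 0.89. A 3-fold threshold left 7 pathway genes there, and with TNF against day 10 it left 0 members and 2 pathway genes. The floor at the 60th percentile left 1 member higher with TNF. The cause of the shift under quantile normalization was not tested; the threshold and the floor act by their construction. Between scalings the median log2 ratio of all genes at day 10 against day 7 moved by up to 0.12, to -0.06 in the values as deposited. For single members, quantile normalization moved 5 of 28 ratios by more than the probe-set SD. With the floor at the 60th percentile it was 4 of 28. The values as deposited and the mean over probe sets moved 0 of 28 each, but neither could have done otherwise. Each member has 1 probe set, so its mean over probe sets is the same value. The values as deposited differ from the main scaling by array factors too close together to move a ratio by that SD. No ratio of 2-fold or more of the 7 members changed sign in these alternatives, while the log2 ratio of Ctss at day 10 against day 7, 1.83, turned to -0.06 after quantile normalization. No paired analysis was possible because each group has 1 array. Signal near the floor limits H2-Ob and the progenitor levels of the chain genes, whose folds are lower bounds.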
